A study of Mus musculus with 14 samples.

Results

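Microglia sorted from the cerebral cortex at day 7 after a focal ischemic stroke, the subacute phase, were compared with microglia sorted at day 1 and day 3, the acute phase. The 6 libraries were chosen by their labelled day, 2 from day 7 and 4 from the acute days (2 from day 1 and 2 from day 3), out of 14 in the series, and no sham library entered. All 6 came from C57BL/6 mice of 8 to 10 weeks. All had stroke surgery, with the distal middle cerebral artery tied for good and both common carotid arteries then closed for 7 min, so time after surgery is the labelled difference between the groups. The sources used here give neither the markers and gate of the sort nor the number of animals behind a library. Each day has a library numbered 1 and a library numbered 2. Whether they are separate animals is not labelled, so the p-values reflect only how far these samples vary, which may be technical.

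Microglia are the resident macrophages of the brain. After ischemia they are known to release cytokines and chemokines early, to take up dying cells and myelin, to divide, and later to carry a state with high lipid and lysosomal genes that is also seen in neurodegeneration models. Cytokine genes are read out through factors such as NF-kB and AP-1, and mitotic genes through the NF-Y box and the cell cycle homology region in their promoters.

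RNA was measured as reads counted per gene. Total counts were 18500290 and 134103031 in replicates 1 and 2 at day 7, 20440442 and 144553466 at day 1, and 16328102 and 149992816 at day 3, so the depth of replicate 2 was 7.07 to 9.19 times that of replicate 1. A count of 0 allows a level of up to 0.147 to 0.184 CPM (library-scaled counts, with each library's total set to 1e6) in replicate 1 libraries and 0.0200 to 0.0224 CPM in replicate 2 libraries. The libraries did not group by day: log2 CPM of libraries of the same day correlated at 0.862 to 0.912 across genes, and those of different days with the same replicate number at 0.851 to 0.968. Replicate 2 of day 1 stood apart on the first principal component, which held 38.9% of the variance. On the second, which held 34.0%, replicate 2 of day 3 (70.7) lay on the side of the day 7 libraries (34.3 and 89.4). The other acute libraries lay at -70.7, -38.5 and -85.1. Replicate 2 of day 3 and replicate 2 of day 7 correlated at 0.941. The difference between day 7 and the acute mean, taken within each replicate number, had the same sign in both for 51.3% of the genes tested. Among the 7609 genes of at least 3 mean log2 CPM that share was 46.4%.

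Over the whole transcriptome, 1 gene passed the test between day 7 and the acute days. edgeR's quasi-likelihood test with the replicate number as a block called, over 13104 genes and at a Benjamini-Hochberg adjusted p under 0.05, 1 gene lower (0.00763%) and 0 higher. At an unadjusted p under 0.05 it held 492 genes higher (3.75%) and 692 lower (5.28%). DESeq2 on the same counts called 110 higher (0.856%) and 346 lower (2.69%), while limma-voom called 0 in either direction. Both day 7 libraries lay above all 4 acute libraries in 1161 genes (8.86%) and below all 4 in 1174 (8.96%). Those shares are the background for every count of members below. The median log2 fold change over all genes was 0.03.

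The gene called was Nxpe5, a member of the neurexophilin and PC-esterase domain family with little described function in microglia. Nxpe5 had 3.94 and 2.24 CPM at day 7, against 146 and 64.4 CPM at day 1 and 108 and 55.5 CPM at day 3. Its day 7 libraries lay far below all 4 acute ones, with no overlap and with similar differences in replicate 1 (-4.99 log2) and replicate 2 (-4.72 log2). The log2 fold change was -4.87 ± 0.40 (SE; edgeR quasi-likelihood adjusted p = 0.0450). The call sits close to the threshold, and with any 1 library left out the edgeR adjusted p lay between 0.0375 and 0.549. It passed without replicate 2 of day 1, and missed without replicate 1 of day 1 (0.0576), replicate 1 of day 3 (0.0536), replicate 2 of day 3 (0.0503), replicate 2 of day 7 (0.104) or replicate 1 of day 7 (0.549), each an edgeR adjusted p. The log2 fold change stayed between -5.02 and -4.74 in these 6 fits.

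The remaining genes are named by a ranking that does not depend on a call, by lowest unadjusted p among genes of at least 3 mean log2 CPM whose groups did not overlap, 12 in each direction. Their differences are given as values, since none of the 23 beside Nxpe5 passed edgeR's adjusted threshold. DESeq2 called all 24 and limma-voom 0. The DESeq2 calls come from the same counts on which the genes were ranked, so they are no separate check. The condition that the groups do not overlap fixes the sign within each replicate number.

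Arg1 encodes arginase, which turns arginine into ornithine and marks alternatively activated macrophages. Arg1 had 4.08 and 3.67 CPM at day 7, against 1263 and 3762 CPM at day 1 and 2322 and 579.8 CPM at day 3. The day 7 libraries were both near 4 CPM and every acute library was far above them, a log2 difference of -8.99 ± 1.12 (SE; edgeR adjusted p = 0.145). Arg2, the mitochondrial arginase, had 3.94 and 5.37 CPM at day 7, against 83.2 and 217 CPM at day 1 and 147 and 49.9 CPM at day 3. Its groups did not overlap. Vti1b overlaps 20.0% of its exon bases on the other strand. How strand was handled is not given, so reads from that stretch may be of either gene. In both arginase genes the lower acute values came from replicate 1 of day 1 and replicate 2 of day 3.

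Il1b, the interleukin that drives much of the acute response, had 352 and 430.5 CPM at day 7, against 4984 and 12551 CPM at day 1 and 10596 and 4044 CPM at day 3, a log2 difference of -4.37 ± 0.73 (SE). Tnf had 205 and 159.6 CPM at day 7, against 965 and 1181 CPM at day 1 and 1644 and 952 CPM at day 3, -2.70 ± 0.43 (SE) on the log2 scale. For both cytokines the lowest acute library was well above the higher day 7 library. Il10, a cytokine that restrains inflammation, lay on the same side, with 3.32 and 4.38 CPM at day 7, against 40.8 and 21.7 CPM at day 1 and 56.6 and 27.1 CPM at day 3. The edgeR adjusted p was 0.221 for Il1b, 0.206 for Tnf and 0.206 for Il10.

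Timp1, an inhibitor of metalloproteinases, had 1.25 and 1.77 CPM at day 7, against 40.3 and 65.6 CPM at day 1 and 66.6 and 21.1 CPM at day 3. Ecm1, a secreted matrix protein, had 245 and 218 CPM at day 7, against 1064 and 1551 CPM at day 1 and 1229 and 1191 CPM at day 3, a narrow range in each group. Id3, which blocks DNA binding by helix-loop-helix factors, had 22.3 and 22.6 CPM at day 7, against 154 and 125 CPM at day 1 and 219.6 and 107 CPM at day 3. In all 3 the day 7 libraries lay close together and below every acute library. Ier3, an early response gene downstream of NF-kB, had 146 and 78.2 CPM at day 7, against 1572 and 1164 CPM at day 1 and 1663 and 415 CPM at day 3. Ocstamp, a membrane protein known from fusion of osteoclasts, had 3.17 and 1.70 CPM at day 7, against 20.02 and 24.1 CPM at day 1 and 21.02 and 15.9 CPM at day 3. Mrc1, the mannose receptor, had 12.3 and 14.01 CPM at day 7, against 48.4 and 45.9 CPM at day 1 and 46.9 and 61.1 CPM at day 3. The groups did not overlap in any of the 6. Their log2 differences were -4.97, -2.43, -2.70, -3.40, -3.11 and -1.95 in that order, and their edgeR adjusted p lay between 0.145 and 0.225.

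Lpl, lipoprotein lipase, which frees fatty acids from triglycerides, led the genes that were higher at day 7. Lpl had 839.6 and 1107 CPM at day 7, against 133 and 122 CPM at day 1 and 82.3 and 125 CPM at day 3. The 4 acute libraries lay close together, below both day 7 libraries, and the log2 difference was 3.07 ± 0.33 (SE; edgeR adjusted p = 0.132). Atp6v0d2, a subunit of the proton pump that acidifies lysosomes and is best known in osteoclasts and macrophages, had 174 and 166 CPM at day 7, against 10.9 and 0.204 CPM at day 1 and 3.50 and 1.40 CPM at day 3. Its difference of 6.43 ± 1.04 (SE) on the log2 scale was the largest of the genes named as higher, and it was wider in replicate 2 (8.19) than in replicate 1 (4.81). Gpnmb, a membrane glycoprotein of lysosome-rich macrophages, which was not among the 12, had 15975 and 14294 CPM at day 7, against 5798 and 211 CPM at day 1 and 3281 and 2466 CPM at day 3.

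A pair of enzymes that act on heparan sulfate chains of the cell surface and matrix lay higher at day 7. Hpse, heparanase, which cuts these chains, had 229 and 225 CPM at day 7, against 78.5 and 39.5 CPM at day 1 and 49.9 and 51.2 CPM at day 3. Sulf2, a sulfatase that trims sulfate from them, had 273 and 202 CPM at day 7, against 72.4 and 107 CPM at day 1 and 55.6 and 91.7 CPM at day 3. Neither overlapped between the groups, and the log2 differences were 2.08 ± 0.32 and 1.59 ± 0.35 (SE). Mfge8, which bridges phosphatidylserine on dying cells to integrins on phagocytes, had 85.04 and 80.6 CPM at day 7, against 27.01 and 22.96 CPM at day 1 and 23.3 and 31.1 CPM at day 3. Ank, a membrane protein of pyrophosphate transport, had 115 and 108 CPM at day 7, against 29.3 and 26.9 CPM at day 1 and 20.8 and 41.02 CPM at day 3. Both sat in narrow ranges in each group, at log2 differences of 1.67 ± 0.30 and 1.95 ± 0.33 (SE).

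Angptl2, a secreted angiopoietin-like protein, had 184 and 66.2 CPM at day 7, against 22.8 and 10.1 CPM at day 1 and 14.6 and 15.8 CPM at day 3. Chn2, a GTPase-activating protein for Rac, had 43.8 and 64.9 CPM at day 7, against 8.34 and 12.1 CPM at day 1 and 7.44 and 24.4 CPM at day 3, with 11.7% of its exon bases overlapped by 9130019P16Rik on the other strand. Wdfy1, an endosomal protein with a FYVE domain, had 56.5 and 189 CPM at day 7, against 9.63 and 36.9 CPM at day 1 and 27.3 and 33.2 CPM at day 3. In these 3 genes the day 7 libraries differed from each other more than in Hpse or Ank, yet both stayed above every acute library. Ly9, a receptor of the SLAM family on immune cells, had 158 and 172 CPM at day 7, against 68.4 and 19.5 CPM at day 1 and 68.8 and 29.4 CPM at day 3. Tcf12, a helix-loop-helix transcription factor, had 97.9 and 58.4 CPM at day 7, against 30.3 and 21.8 CPM at day 1 and 23.1 and 26.4 CPM at day 3. Ttc3, a ubiquitin ligase, had 52.03 and 76.05 CPM at day 7, against 17.8 and 16.2 CPM at day 1 and 11.3 and 20.4 CPM at day 3. The log2 differences of these 6 genes ran between 1.58 for Tcf12 and 2.85 for Angptl2, and the edgeR adjusted p between 0.145 and 0.322.

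**Figure D1:**
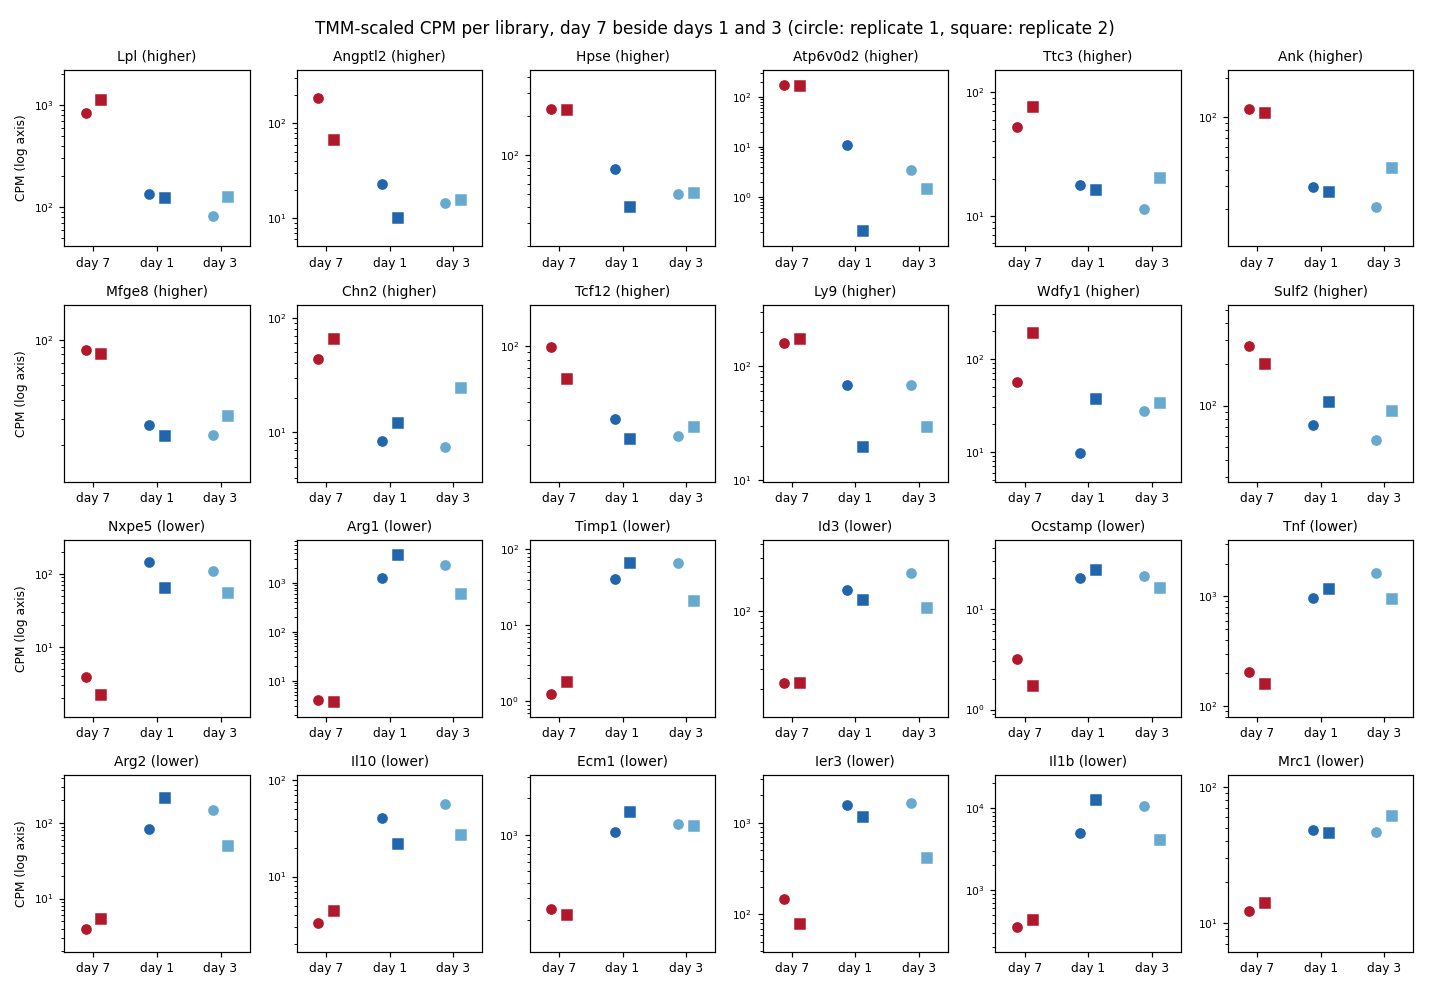
TMM-scaled CPM on a log axis for 24 genes, 1 panel per gene, at day 7, day 1 and day 3 (circles, replicate 1; squares, replicate 2). In all 24 panels both day 7 points lie on 1 side of all 4 acute points, which was a condition of the choice, and Lpl reaches 839.6 and 1107 CPM at day 7 and Arg1 4.08 and 3.67 CPM.

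The inflammatory genes were lower at day 7 as a group, though edgeR called 0 members of any of the 23 gene lists and 14 marker lists after adjustment. Of 28 inflammatory cytokines and NF-kB targets tested, 17 lay below all 4 acute libraries at day 7 and 0 above, against 8.96% and 8.86% of all genes, and the median log2 difference was -1.73. Of the 28, edgeR held 17 lower at an unadjusted p under 0.05, and DESeq2 called 15 lower. The unadjusted count was 11 without replicate 2 of day 7 and 13 to 19 without any other single library. The median was -1.20 within replicate 1 and -2.16 within replicate 2. Il23a, the subunit that defines interleukin-23, had 0.288 and 0.255 CPM at day 7, against 16.4 and 39.8 CPM at day 1 and 45.1 and 19.9 CPM at day 3. Nos2, inducible nitric oxide synthase, had 0.192 and 0.214 CPM at day 7, against 1.08 and 105 CPM at day 1 and 4.44 and 4.52 CPM at day 3. Il6 had 0.480 and 0.871 CPM at day 7, against 8.82 and 21.6 CPM at day 1 and 47.98 and 5.22 CPM at day 3. In each of these the day 7 libraries lay below all acute ones, while the acute libraries spread widely. Some members stayed close to the acute level: the differences of the NF-kB subunit genes Nfkb1 and Rel were 0.13 and -0.44, and those of Tlr2 and Icam1 were -0.25 and -0.13 on the log2 scale. Of the inhibitors that NF-kB switches on in feedback, Nfkbia differed by -2.85 log2 without overlap and Tnfaip3 by -0.90 with overlap.

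Chemokine genes lay on the same side, with 14 of 21 below all acute libraries at day 7 and 1 above, and a median log2 difference of -2.12. edgeR called 0, held 14 lower and 1 higher at an unadjusted p under 0.05, and DESeq2 called 13 lower and 1 higher. The unadjusted count lower was 7 without replicate 1 of day 7. The neutrophil attractants Cxcl1 and Cxcl2 were among the members that differed most. Cxcl1 had 28.1 and 29.9 CPM at day 7, against 216 and 4544 CPM at day 1 and 619.8 and 282 CPM at day 3. Cxcl2 had 122 and 198 CPM at day 7, against 1862 and 10650.2 CPM at day 1 and 4687 and 732 CPM at day 3. Day 1 replicate 2 was the highest library for both, and the log2 differences were -4.94 ± 1.38 and -4.79 ± 1.18 (SE). The monocyte attractant Ccl2 had 71.6 and 71.7 CPM at day 7, against 326 and 323 CPM at day 1 and 459 and 110.1 CPM at day 3. Its day 3 replicate 2 value was the acute library nearest to day 7. Cxcl9, an interferon-gamma-induced T cell attractant, lay on the other side at low levels, with 1.83 and 4.96 CPM at day 7, against 0.699 and 0.0141 CPM at day 1 and 0.938 and 0.185 CPM at day 3. The homeostatic chemokines Cxcl12 and Cxcl14 had log2 differences of 0.74 and 0.27 with overlapping groups.

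The promoters of Cxcl1 (chr5:90890995-90891294, plus strand) and Cxcl2 (chr5:90903649-90903948, plus strand) are shown because they hold NF-kB letters, GGGA and TTCC with any 2 bases between them, in a window around the RefSeq start on GRCm38.p6, from 250 bases before it to 50 after. Capitals mark the match, read on both strands, which overlap here at 1 place in each promoter.
Cxcl1: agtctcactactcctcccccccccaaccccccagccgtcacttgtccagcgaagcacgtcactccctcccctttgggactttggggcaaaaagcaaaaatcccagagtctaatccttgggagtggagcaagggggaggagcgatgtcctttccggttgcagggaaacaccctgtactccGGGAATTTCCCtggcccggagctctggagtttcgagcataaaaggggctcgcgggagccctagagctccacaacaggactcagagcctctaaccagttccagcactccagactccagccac
Cxcl2: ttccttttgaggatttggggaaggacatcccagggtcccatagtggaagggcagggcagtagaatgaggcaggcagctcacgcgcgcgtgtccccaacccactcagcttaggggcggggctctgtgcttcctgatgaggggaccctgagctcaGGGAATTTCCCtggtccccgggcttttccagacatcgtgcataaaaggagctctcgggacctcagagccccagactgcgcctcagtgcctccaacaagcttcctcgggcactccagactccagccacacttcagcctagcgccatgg
Of 15 chemokine promoters with a sequence 26.7% held these letters, and of 26 promoters of the inflammatory list 15.4%, against 1.48% of 12739 promoters of the genes tested. The AP-1 letters TGANTCA were in 26.7% and 26.9%, against 5.40%. The windows of Il1b and Tnf held neither. Of 23 promoters of the immediate early list, which also lay lower at day 7, 0 held the NF-kB or the AP-1 letters. Of 8 promoters of the 12 genes ranked as lower, 0 held the NF-kB letters and 1 the AP-1 letters. The inflammatory list was put together in part from known NF-kB targets, so its NF-kB share is no separate finding. A match is a description of letters, not a bound site.

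Early response genes lay lower too. Of 23 immediate early and Klf genes 16 were below all acute libraries at day 7 and 0 above, with a median log2 difference of -1.04 that was -0.97 within replicate 1 and -1.18 within replicate 2. edgeR called 0, and 12 were lower at an unadjusted p under 0.05, a count that was 4 without replicate 2 of day 7, 5 without replicate 1 of day 3 and 8 without replicate 1 of day 1. DESeq2 called 7. Fosl2, an AP-1 subunit, had 28.4 and 8.14 CPM at day 7, against 46.97 and 69.1 CPM at day 1 and 92.1 and 37.3 CPM at day 3. Zfp36, which speeds decay of cytokine mRNA, had 2396 and 1272 CPM at day 7, against 6917 and 5371 CPM at day 1 and 6032 and 3256 CPM at day 3. The groups did not overlap for either, with differences of -1.94 and -1.59 on the log2 scale. Jun and Fosb, also of AP-1, stayed at -0.16 and -0.04 with overlapping groups.

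Glycolysis and hypoxia genes were mostly lower, with 12 of 23 below all acute libraries, 0 above and a median log2 difference of -0.79. edgeR called 0, and 8 were lower at an unadjusted p under 0.05 (5 without replicate 1 of day 3 or replicate 2 of day 7). Vegfa, the vascular growth factor induced by low oxygen, had 80.7 and 31.7 CPM at day 7, against 102 and 921 CPM at day 1 and 218 and 292 CPM at day 3. Slc2a1, the glucose transporter in the GLUT family, had 70.96 and 50.4 CPM at day 7, against 119 and 523 CPM at day 1 and 204 and 183 CPM at day 3. Egln3, the prolyl hydroxylase that hypoxia induces, had 1.78 and 2.24 CPM at day 7, against 13.1 and 30.2 CPM at day 1 and 21.4 and 7.10 CPM at day 3. All 3 showed no overlap, and day 1 replicate 2 was the highest library in each. Hif1a itself differed by -0.61 log2 and Hk2, hexokinase, by -0.08 log2, both with overlap. The oxidative stress, heme and iron list had 11 of 25 below all acute libraries and 1 above. Hmox1, heme oxygenase, had 231 and 146 CPM at day 7, against 1348 and 2099 CPM at day 1 and 1978 and 286 CPM at day 3, a log2 difference of -2.94 ± 0.82 (SE; edgeR adjusted p = 0.414). Alternative activation genes, Arg1 and Mrc1 among them, had 9 of 18 below and 1 above, with a median of -1.19.

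Cell cycle genes lay on the opposite side. At day 7, 29 of 42 lay above all 4 acute libraries and 1 below, with a median log2 difference of 1.61. edgeR called 0, and 17 were higher and 1 lower at an unadjusted p under 0.05. That unadjusted count depended on single libraries: the number higher was 34 without replicate 2 of day 3, 24 without replicate 2 of day 1, 4 without replicate 1 of day 1 or of day 3, and 1 without replicate 1 of day 7. The count of 29 above was 29 to 36 when any 1 library was left out, while the share of all genes above ran from 9.52% to 23.4%. Leaving out a library can only keep or raise such a count, so this range does not check it. DESeq2 called 3 higher and 0 lower. Top2a, topoisomerase of dividing cells, had 66.01 and 51.2 CPM at day 7, against 6.13 and 2.10 CPM at day 1 and 9.20 and 50.5 CPM at day 3. Replicate 2 of day 3 lay just under the lower day 7 library, and the other 3 acute libraries were under 10 CPM. Mki67, the Ki-67 antigen, had 34.5 and 23.4 CPM at day 7, against 7.16 and 5.97 CPM at day 1 and 9.82 and 23.97 CPM at day 3, where the groups overlap through the same library. Kif11, a spindle motor, had 23.3 and 18.5 CPM at day 7, against 0.807 and 0 CPM at day 1 and 1.25 and 14.2 CPM at day 3. Cdk1, the mitotic kinase, had 34.2 and 36.3 CPM at day 7, against 13.8 and 1.99 CPM at day 1 and 14.5 and 31.6 CPM at day 3. In Cdk1 too replicate 2 of day 3 came close to day 7. Summed over the list, levels were 2060.1 and 1539 CPM at day 7, against 653 and 473 CPM at day 1 and 618 and 1560.2 CPM at day 3, so day 7 replicate 2 and day 3 replicate 2 were about level. Against day 1 the list's median log2 difference was 2.23 and against day 3 it was 0.99. The D-type cyclin Ccnd2 was the 1 member below all acute libraries, at -1.35 log2, and Ccnd1 was above them at 1.25.

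The promoters of Top2a (chr11:99024140-99024439, minus strand) and Cdk1 (chr10:69352863-69353162, minus strand) are shown for the motifs that mitotic genes share, with CCAAT (NF-Y) and TTTGAA (cell cycle homology region) in capitals on either strand, from the same RefSeq table and build.
Top2a: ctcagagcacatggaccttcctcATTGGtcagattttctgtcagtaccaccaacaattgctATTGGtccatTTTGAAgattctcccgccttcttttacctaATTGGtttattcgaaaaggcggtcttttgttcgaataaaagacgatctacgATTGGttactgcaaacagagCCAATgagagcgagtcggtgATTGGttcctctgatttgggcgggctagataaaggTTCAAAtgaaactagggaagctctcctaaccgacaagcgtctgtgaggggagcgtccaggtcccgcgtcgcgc
Cdk1: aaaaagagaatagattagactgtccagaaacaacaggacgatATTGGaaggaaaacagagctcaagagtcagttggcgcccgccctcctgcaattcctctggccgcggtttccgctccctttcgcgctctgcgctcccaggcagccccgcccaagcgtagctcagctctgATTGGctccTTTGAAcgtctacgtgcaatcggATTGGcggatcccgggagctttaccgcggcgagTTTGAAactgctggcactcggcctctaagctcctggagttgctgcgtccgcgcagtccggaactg
Top2a held 8 matches and Cdk1 5. Over the list 76.5% of 34 promoters held CCAAT and 41.2% TTTGAA, against 37.4% and 11.98% of 12739 promoters of the genes tested.

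Genes of the state seen around plaques and lesions, called disease-associated microglia, were divided. Of 30 tested, 9 lay above all acute libraries at day 7 and 2 below, edgeR called 0, 8 were higher and 2 lower at an unadjusted p under 0.05, and the median log2 difference was 0.53. Within replicate 1 that median was -0.30 and within replicate 2 it was 1.08. It was 0.04 without replicate 2 of day 1 and -0.32 without replicate 2 of day 7. Spp1, osteopontin, was the most abundant of those higher. Spp1 had 66183 and 74629.9 CPM at day 7, against 25777 and 5886 CPM at day 1 and 12031 and 7409.6 CPM at day 3, and 18.8% of its exon bases are overlapped on the same strand by Gm42793. Igf1, insulin-like growth factor, had 328 and 366 CPM at day 7, against 64.6 and 3.31 CPM at day 1 and 38.1 and 28.3 CPM at day 3. Axl, a receptor for dying cells, had 719.8 and 523 CPM at day 7, against 107 and 38.8 CPM at day 1 and 65.1 and 287 CPM at day 3. All 3 were above every acute library, at 2.73 ± 0.60, 3.71 ± 0.82 and 2.43 ± 0.73 log2 (SE).

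Not all genes of that state were separated by phase. Apoe, the lipid carrier, had 30017 and 59279 CPM at day 7, against 40885 and 2374 CPM at day 1 and 31929 and 14177 CPM at day 3. Trem2, the lipid-sensing receptor upstream of the state, had 921 and 1662 CPM at day 7, against 1319.7 and 188 CPM at day 1 and 1022 and 932 CPM at day 3. In replicate 1 both stood below the acute mean at day 7 and in replicate 2 above it, by -0.27 and 3.35 log2 for Apoe and -0.33 and 1.99 for Trem2. Fth1, the ferritin heavy chain, which has processed copies elsewhere in the genome, was below all acute libraries, with 5641 and 9319.8 CPM at day 7, against 27755 and 33991 CPM at day 1 and 34014 and 13007 CPM at day 3. Ccl6, placed in this list and in that of the chemokines, was below as well at -4.12 log2.

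Of 35 lysosome genes, Atp6v0d2 included, 8 lay above all acute libraries and 2 below, and the median log2 difference was 0.35. Within replicate 1 that median was -0.05 and within replicate 2 it was 0.66. At an unadjusted p under 0.05 edgeR held 3 higher and 1 lower, with 0 called after adjustment. DESeq2 called 1 higher and 0 lower. Glb1, the lysosomal galactosidase, had 201 and 335 CPM at day 7, against 103 and 52.04 CPM at day 1 and 84.02 and 145 CPM at day 3. Ctsd, cathepsin D, had 37266 and 54540.2 CPM at day 7, against 34723 and 7981 CPM at day 1 and 20985 and 35416 CPM at day 3. Both were above every acute library, by 1.45 and 0.90 log2. The sister subunit Atp6v0d1 differed by -0.10 log2, against 6.43 for Atp6v0d2. The letters TCACGTGA, read by TFEB, were in 14.7% of 34 promoters of the lysosome list and in 1.76% of all those of the genes tested.

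Engulfment genes lay on both sides. Of 22 tested 4 were above all acute libraries and 5 below, with 0 called by edgeR and 3 higher and 4 lower at an unadjusted p under 0.05. Cd14, the co-receptor for lipopolysaccharide, had 1106 and 973 CPM at day 7, against 4325 and 6037 CPM at day 1 and 8498 and 2305 CPM at day 3. Fcgr4, an activating Fc receptor, had 38.00 and 38.02 CPM at day 7, against 216 and 153 CPM at day 1 and 185 and 96.2 CPM at day 3. In both genes the day 7 libraries were below every acute library, by -2.31 and -2.04 log2. Fcgr1 and Fcgr3 were also below all acute libraries, at -1.01 and -0.93 log2. Mfge8, Axl, Cd36 and Stab2 were above them, at 1.67, 2.43, 1.07 and 4.42 log2. Other receptors or bridges for dying cells overlapped between the groups, such as Mertk at 1.19, Gas6 at 0.96 and Stab1 at 0.64 log2. Complement had 2 of 16 above and 2 below. The C1q chains C1qa, C1qb and C1qc differed by 0.36, 0.28 and 0.47 log2, the anaphylatoxin receptor C5ar1 by -2.11, and the protective membrane protein Cd59a by 2.25.

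Homeostatic microglial genes did not separate the phases, with 2 of 25 above all acute libraries, 2 below, 1 higher and 1 lower at an unadjusted p under 0.05, 0 called by edgeR and a median log2 difference of 0.01. Against day 1 alone the median was 1.08 and against day 3 alone -0.40, 2 contrasts that share the day 7 libraries. Without replicate 2 of day 3 it was 1.09. Tmem119 had 343 and 211 CPM at day 7, against 302 and 42.3 CPM at day 1 and 275 and 279 CPM at day 3, a level that all libraries but replicate 2 of day 1 share. P2ry12, the purinergic receptor of surveying processes, had 90.2 and 144 CPM at day 7, against 86.3 and 23.3 CPM at day 1 and 114 and 258 CPM at day 3. The receptor for fractalkine, Cx3cr1, had 681 and 357 CPM at day 7, against 248 and 54.7 CPM at day 1 and 184 and 342 CPM at day 3, so that the lower day 7 library was barely above replicate 2 of day 3. The log2 differences were 0.32 ± 0.64, -0.05 ± 0.77 and 1.27 ± 0.64 (SE), with edgeR adjusted p of 0.872, 0.986 and 0.595. Gpr84, an inducible fatty acid receptor placed in this list, was below all acute libraries at -1.55 log2, with 39.5% of its exon bases overlapped on the other strand by Gm49482.

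**Figure D2:**
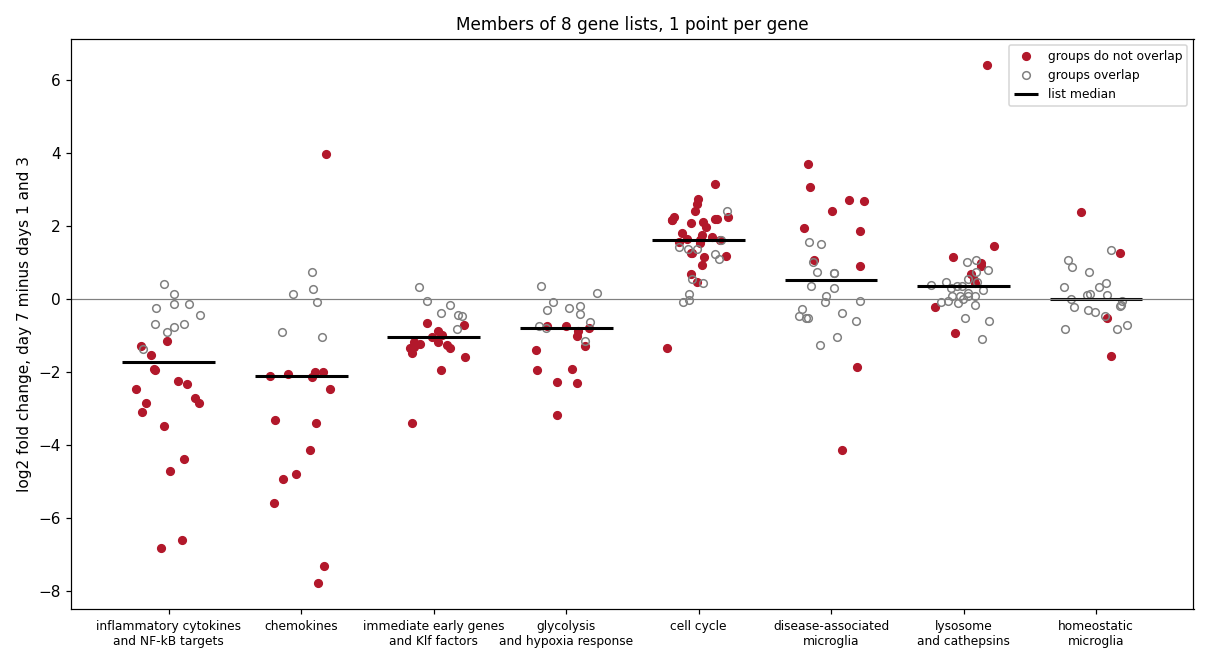
Log2 fold change (day 7 minus days 1 and 3) of each member of 8 gene lists, 1 point per gene, filled where the groups do not overlap; bars are list medians. Inflammatory genes (median -1.73) and chemokines (-2.12) lie below 0 and cell cycle genes (1.61) above it, while homeostatic genes (0.01) spread around it.

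The median differences of ribosomal protein genes and of oxidative phosphorylation genes had opposite signs in the 2 replicate numbers. The ribosomal list had a median of -0.79 over 31 genes, made of -1.93 within replicate 1 and 0.14 within replicate 2. Oxidative phosphorylation had -0.58 over 31 genes, made of -1.73 and 0.22. Summed levels of the ribosomal list were 1293 and 1660.1 CPM at day 7, against 2810.5 and 1907 CPM at day 1 and 3628 and 2174 CPM at day 3. Replicate 1 of both acute days was highest and replicate 1 of day 7 lowest, and both day 7 sums lay below all 4 acute sums. Of the 31 ribosomal genes 6 lay below all acute libraries and 0 above, and 30 had a negative log2 fold change. Of 23 genes of the unfolded protein response, 9 lay below all acute libraries and 0 above. edgeR called 0, and 4 were lower and 0 higher at an unadjusted p under 0.05. The median was -0.54, made of -0.62 within replicate 1 and -0.41 within replicate 2. Interferon response genes had a median of -0.02 and MHC class I genes of 0.06. MHC class II genes had -0.17, made of -0.63 within replicate 1 and 0.16 within replicate 2. Without replicate 2 of day 7, 7 of 12 MHC class II and 13 of 29 interferon genes lay below all acute libraries, against 23.1% of all genes. In that setting 1 and 5 lay above, against 23.4%. Without replicate 1 of day 7, 2 and 5 lay below, against 19.3% of all genes, and 1 and 9 above, against 20.2%. Leaving out a library can only keep or raise such counts. With all 6 libraries 2 and 5 lay below and 1 and 3 above.

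**Figure D3:**
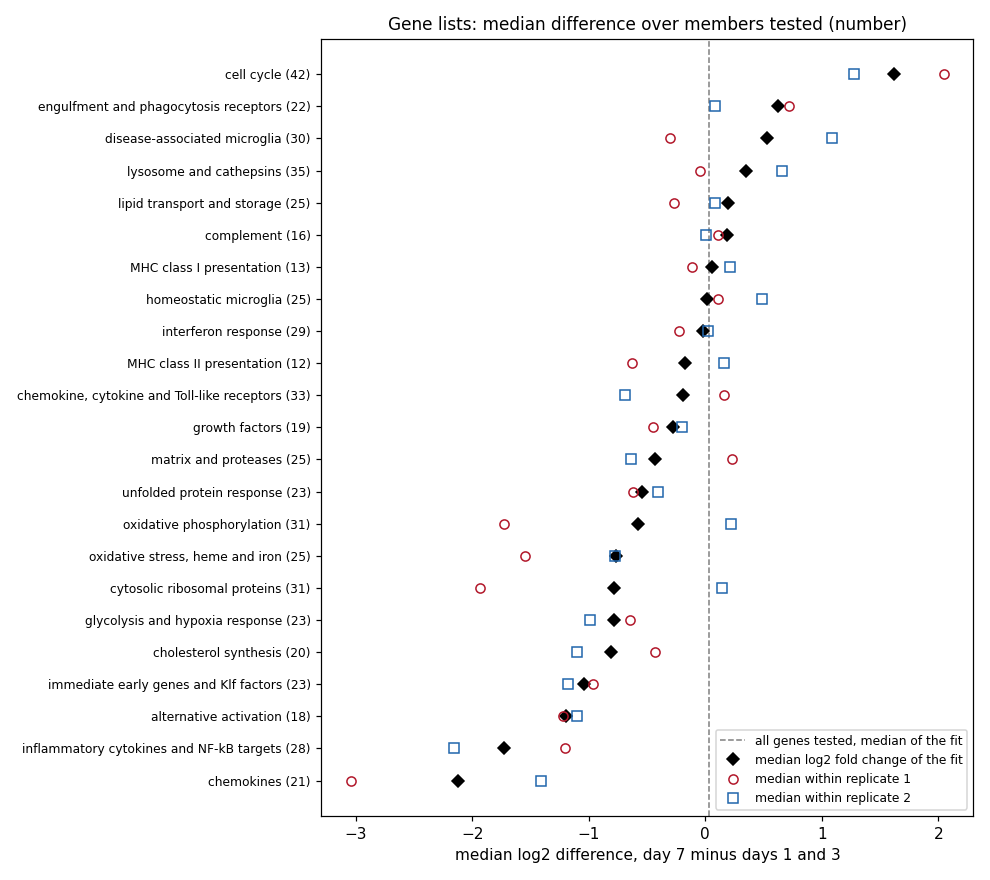
Median log2 difference, day 7 minus days 1 and 3, over the members tested of each gene list (number in brackets), from the fit (diamonds), within replicate 1 (circles) and within replicate 2 (squares); the dashed line is the median of all genes, 0.03. The 3 marks lie on the same side of 0 for chemokines, inflammatory genes and cell cycle genes, and on both sides for ribosomal (-1.93 and 0.14) and disease-associated genes (-0.30 and 1.08).

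Markers of other cells that a cortical sort could hold differed between the phases as well. In bulk samples fewer cells of a type and less RNA per cell cannot be told apart. Neutrophil markers summed to 379.6 and 963 CPM at day 7, against 1316 and 7994 CPM at day 1 and 3972 and 979.9 CPM at day 3, and 4 of 14 tested lay below all acute libraries at day 7. S100a8, a neutrophil calprotectin gene, had 5.53 and 46.5 CPM at day 7, against 269.9 and 1053 CPM at day 1 and 1237 and 33.4 CPM at day 3. Replicate 2 of day 7 lay above replicate 2 of day 3, so the groups overlap, and the other 3 acute libraries were higher than both. Other members of the list differed from it: Ltf, lactoferrin, had 14.6 and 202 CPM at day 7, against 11.2 and 99.02 CPM at day 1 and 12.5 and 23.3 CPM at day 3, and Ngp, a granule protein gene, had 19.5 and 146 CPM at day 7, against 46.5 and 76.6 CPM at day 1 and 52.99 and 17.9 CPM at day 3, both highest in replicate 2 of day 7. Monocyte markers summed to 2390.4 and 2258 CPM at day 7, against 2619.7 and 12811 CPM at day 1 and 4129 and 6232 CPM at day 3. Of 17 members 7 lay below all acute libraries and 0 above. F13a1, of that list, went the other way in replicate 1. Without TMM factors it had 905 and 288 CPM at day 7, against 246 to 421 CPM in the acute libraries. The neutrophil and monocyte lists share the direction of the cytokine and chemokine genes above, and their part in those results was not tested. T and NK cell markers summed to 124 and 84.7 CPM at day 7, against 57.1 and 44.1 CPM at day 1 and 48.4 and 37.5 CPM at day 3, and 6 of 16 lay above all acute libraries. Cd4 had 15.5 and 14.3 CPM at day 7, against 2.21 and 0.562 CPM at day 1 and 0.813 and 1.26 CPM at day 3, while Cd3e, a defining T cell gene, had 0.625 and 2.02 CPM at day 7, against 0.161 and 0 CPM at day 1 and 0 and 0.209 CPM at day 3. Markers of border-associated macrophages, at 3288 and 2849.8 CPM at day 7, against 3300.0 and 2970.2 CPM at day 1 and 3757 and 3255 CPM at day 3, overlapped in their sum. Of 14 members 4, among them Mrc1, Cd163 and Pf4, lay below all acute libraries and 1, Clec12a, above. The log2 fold change was positive for 6 of the 14 and negative for 8. Pericyte and fibroblast markers summed to 101 and 195 CPM at day 7, against 22.6 and 61.5 CPM at day 1 and 55.2 and 264 CPM at day 3, with 2 of 12 below all acute libraries and 0 above. Col1a1, a collagen gene of that list, had 18.7 and 45.5 CPM at day 7, against 0.484 and 0.169 CPM at day 1 and 1.19 and 40.1 CPM at day 3. For Col1a1 both day 7 libraries and replicate 2 of day 3 were the high ones, as for Top2a. Acta2, a gene of the same list, went the other way. It had 3.95 and 6.35 CPM at day 7 without TMM factors. Its acute values were 13.9 and 45.9 CPM at day 1 and 19.4 and 9.75 CPM at day 3. Of the 12, 6 had a positive and 6 a negative log2 fold change. The part of these cells in the cell cycle result was not tested. Neuron markers were at 1.35 and 1.11 CPM at day 7 and at most 24.1 CPM in the acute libraries.

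**Figure D4:**
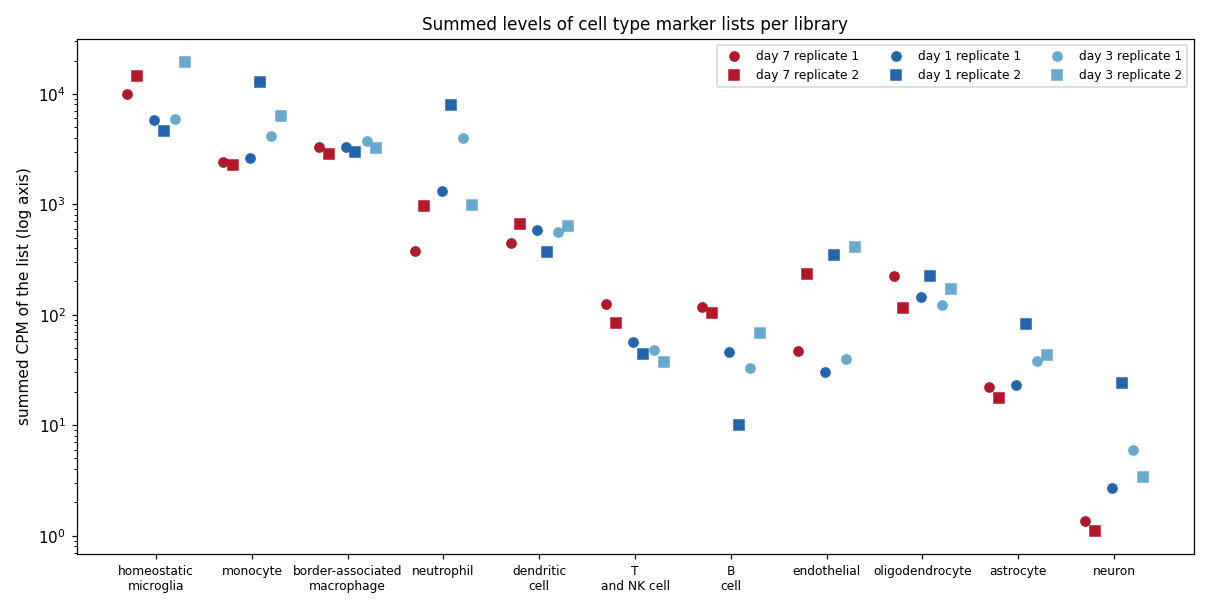
Summed CPM (log axis) of marker lists of 11 cell types in each of the 6 libraries, with circles for replicate 1 and squares for replicate 2. Neutrophil markers run from 379.6 to 963 CPM at day 7 and from 979.9 to 7994 CPM in the acute libraries. T and NK cell markers are at 123.8 and 84.7 CPM at day 7 and at most 57.1 CPM in the acute libraries. Il7r, Cd28 and Cd4 are the largest members of that list at day 7.

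Set against each acute day alone, in a fit with a mean per day, day 7 had 0 genes higher and 4 lower than day 1 (0.0305%), and 0 higher and 3 lower than day 3 (0.0229%). Both contrasts use the same day 7 libraries. Arg1, Il23a and Nxpe5 were lower in both, with log2 fold changes against day 1 of -9.39, -6.71 and -5.03 (edgeR quasi-likelihood adjusted p = 0.0395 for each) and against day 3 of -8.49, -6.91 and -4.70 (edgeR adjusted p = 0.0484 for each). The fourth gene against day 1, Trim43b, was at 0 CPM in both day 7 libraries and had 0.0538 and 38.5 CPM at day 1 and 0 and 16.8 CPM at day 3, so its call rests on 1 library and no fold is given. At an unadjusted p under 0.05 edgeR held 608 genes higher and 579 lower against day 1, and 156 higher and 377 lower against day 3. The counts of 4 and 3 rest on all 6 libraries: without single libraries the first was 0 (either day 7 library), 19 (replicate 2 of day 1), 336 and 343 (day 3 libraries) or 966 (replicate 1 of day 1), and the second ran from 0 (either day 7 library) to 177 (replicate 2 of day 3). Day 3 against day 1 gave 0 calls, with 211 higher and 23 lower at an unadjusted p under 0.05. Cell cycle and homeostatic genes had larger values against day 1 than against day 3. Top2a was 3.84 log2 from day 1 and 1.01 from day 3, and Cx3cr1 1.92 and 0.75. For the cytokine genes the 2 values were close, with Il1b at -4.47 and -4.25 and Tnf at -2.59 and -2.81. The difference between the 2 contrasts is that of day 3 and day 1, in which 0 genes passed.

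**Figure D5:**
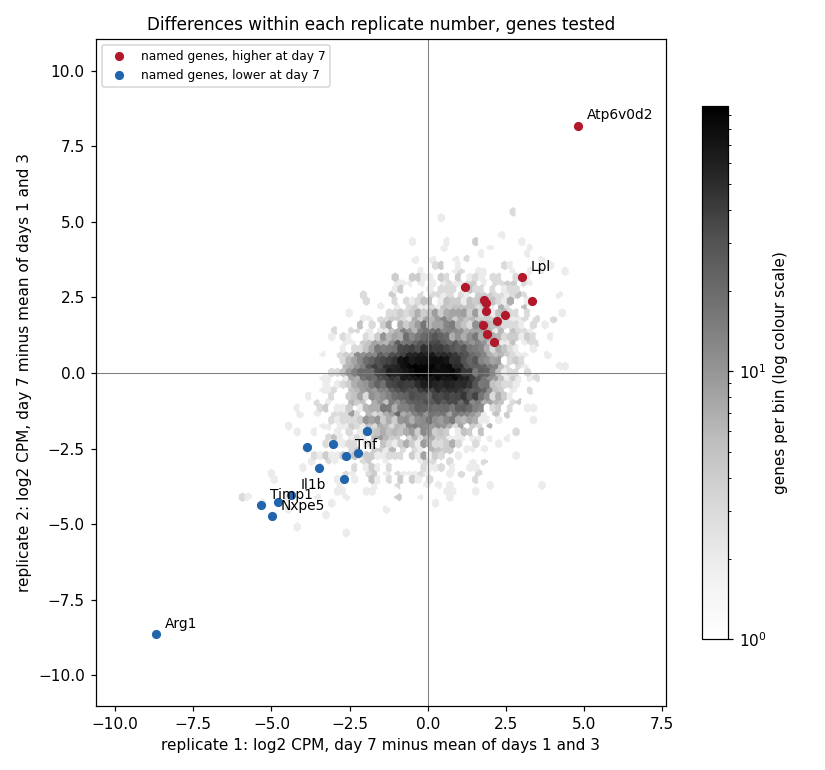
Log2 CPM difference between day 7 and the mean of days 1 and 3 within replicate 1 (horizontal) and within replicate 2 (vertical), with grey bins for the number of genes tested and coloured points for the 24 named genes. The cloud has the same sign in both directions for 51.3% of genes; Arg1 lies at -8.70 and -8.64, Nxpe5 at -4.99 and -4.72 and Lpl at 3.00 and 3.17.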

How the data were processed

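Counts are whole numbers of reads per gene that the authors deposited, with no normalization. The submitters' processing notes name the mouse build mm9, Bowtie2 2.3.4.2 and HTSeq 0.6.1. How strand, annotation and reads with several alignments were handled is not given in the sources used here. Copies and overlapping genes were therefore looked up in GENCODE annotation of GRCm38 for the ranked genes and for the 4 members of each list with the lowest p, and promoters come from RefSeq on GRCm38.p6. Of 13104 genes tested, 9924 matched a promoter.

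The 6 libraries were fitted in R 4.3.3 with edgeR 4.0.16: TMM scaling, a filter by day that left 13104 of 14084 genes, robust quasi-likelihood F tests of day 7 against the mean of the acute libraries, with the replicate number as a block (3 residual degrees of freedom, common biological coefficient of variation 0.535). Adjusted p-values are Benjamini-Hochberg over all genes tested, with calls under 0.05. A standard error is the log2 fold change over the square root of F. TMM factors enter the CPM of single genes but not list sums, and a prior count of 2 was added for log2 CPM. Floors of 3 counts cover counting error only.

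The replicate number was a block by the rule of the comparison, and it divides the libraries by depth. Same-numbered libraries also deviated together from their day's mean in every pair of days (r of 0.316, 0.330 and 0.397 across genes). The titles give the numbers and no label says what they share. Replicates of a day differed by more than counting noise (chi-square per degree of freedom of 429 or more). DESeq2 1.42.0, limma 3.58.1 (voom), other scalings and filters, 14-library fits, thinned counts and fits without each library were alternatives, 21 in all. The pipeline was tested on simulated counts. Genes are named by the rank stated with them, from a panel of 16, or as list members with the lowest p or the clearest role. The members and lists were chosen with earlier results of these data known; list members given as examples, and the counts with a library left out, were chosen after their values were seen. No sham library was used outside the 14-library fits.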

Additional observations from a re-analysis of the deposited data

Results flagged for a closer look

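Among the 4 acute libraries, 4 of 73 values examined (36 gene levels and 37 list sums) had 1 library far from the other 3, by a gap to the nearest that exceeds Dixon's 95% critical share of the whole range. Chance gives about 1 in 20 such groups. Tmem119 was at 42.3 CPM in replicate 2 of day 1, against 275 to 302 CPM in the other acute libraries, and had 343 and 211 CPM at day 7. The cholesterol synthesis list summed to 889 CPM in replicate 2 of day 1, against 357 to 389.8 CPM in the others. At day 7 it summed to 335 and 272 CPM, below all 4 acute sums. The homeostatic list summed to 19276 CPM in replicate 2 of day 3, against 4608 to 5875 CPM in the others, and to 10016 and 14475 CPM at day 7. The engulfment receptor list summed to 17966 CPM in replicate 1 of day 3, against 12885 to 13387 CPM in the others. At day 7 it summed to 10871 and 10811 CPM, also below all 4 acute sums.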

How the results depend on the processing

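The count of called genes turned on the fit. Its value of 1 (0 higher, 1 lower) was 1 under RLE or upper-quartile scaling, no filter, a filter on CPM, thinning of replicate 2 and the 14-library fit with no replicate block, where the gene was not Nxpe5. It was 4 (all lower) with the replicate block and a mean per day, 11 (4 higher, 7 lower) with all 14 libraries and the block, and 0 with no replicate block, with no block and without replicate 2 of day 1, with limma-voom and with a minimum fold change of 2. DESeq2 gave 456 (110 higher, 346 lower). It was 353 (173 higher, 180 lower) with the day 1 libraries alone as reference and 127 (32 higher, 95 lower) with those of day 3, from fits of 4 libraries. With single libraries left out it was 0 in 5 fits and 3 without replicate 2 of day 1 (0 to 1 higher, 0 to 2 lower). Day 7 against day 1 gave 0 with no block, 353 in 4 libraries, 1 with 14, 10 unfiltered, 0 with the CPM filter or thinned, and 0 (without either day 7 library) to 966 (without replicate 1 of day 1) with single libraries left out, against 4. Day 7 against day 3 gave 0, 127, 1, 6, 0 and 0 in the same order, 0 at a minimum fold change of 2, and 0 (without either day 7 library) to 177 (without replicate 2 of day 3), against 3. The sign of P2ry12 turned to 0.21 (mean per day), 0.25 and 0.20 (14 libraries with and without the block), 0.41 (limma-voom), 1.35 (day 1 alone) and 0.051 at the least where it turned with a library left out (-0.45 to 1.09 over these fits). Tmem119 turned to -0.0292 (day 3 alone), -0.040 (without replicate 2 of day 1) and -0.062 (that and no block), against -0.040 to 1.15 with libraries left out. Apoe turned to -0.28 and Trem2 to -0.35 without replicate 2 of day 7, with ranges of -0.28 to 2.86 and -0.35 to 1.58. Nxpe5 lost its call in 11 of 21 alternatives. The cause of these shifts was not tested. Scaling moved the median of all genes by under 0.1 log2.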

Other observations

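Growth factors, matrix genes and receptors lay on both sides of the acute level at day 7. Areg, amphiregulin, had 1.35 and 0.855 CPM at day 7, against 12.5 and 57.6 CPM at day 1 and 52.2 and 16.6 CPM at day 3. Its day 7 libraries lay below every acute one. Hbegf and the activin subunit gene Inhba were also below every acute library, at -2.13 and -4.99 log2. Pdgfc, a platelet-derived growth factor, and Igf1 were above every one, at 2.67 and 3.71 log2. Of 19 growth factors tested 7 lay below all acute libraries and 2 above, edgeR called 0, and 7 were lower and 1 higher at an unadjusted p under 0.05. The 7 below include Ereg, at 0 CPM in both day 7 libraries, where the floor of replicate 1 (0.162 CPM) exceeds the levels of replicate 1 of day 1 (0.108 CPM) and replicate 2 of day 3 (0.0358 CPM).

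Of 25 matrix and protease genes 9 lay below all acute libraries and 2 above. Thbs1, thrombospondin, had 907 and 136 CPM at day 7, against 1478 and 9689 CPM at day 1 and 2733 and 4787 CPM at day 3, and Timp2, the sister inhibitor of Timp1, had 1311 and 1662 CPM at day 7, against 816 and 72.9 CPM at day 1 and 534 and 461 CPM at day 3. Timp1 and Timp2 thus lay on opposite sides, at -4.97 and 1.88 log2. Of 33 chemokine, cytokine and Toll-like receptors 9 lay below and 2 above. The decoy receptor gene Il1r2 had 14.3 and 30.8 CPM at day 7, against 178 and 1206 CPM at day 1 and 529 and 109.6 CPM at day 3. Ccr1 differed by -2.67 log2 without overlap, while Tlr4 and Il1r1 stayed at -0.06 and -0.02. edgeR called 0 genes of these lists, with 7 lower and 2 higher (matrix) and 7 lower and 1 higher (receptors) at an unadjusted p under 0.05. DESeq2 called 5 lower and 1 higher among matrix genes and 4 lower among receptors.

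Ly6c1 and H2-DMb2 followed the replicate number. Ly6c1 had 0.817 and 171 CPM at day 7, against 3.01 and 271 CPM at day 1 and 4.63 and 168 CPM at day 3, and H2-DMb2 had 7.11 and 324 CPM at day 7, against 13.1 and 456 CPM at day 1 and 9.63 and 395 CPM at day 3. Replicate 2 was far above replicate 1 on every day, and H2-DMb2 shares 24.8% of its sequence words with other transcripts, 21.2% with H2-DMb1.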
